A study of Danio rerio with 184 samples.

Results

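Of the 12354 zebrafish genes in the table, 7 cilium genes were taken by their Ensembl identifiers. All 7 had UMIs (unique molecular identifiers, each counting 1 captured transcript), as did almost every gene in the table. They were foxj1 (ENSDARG00000101919), ift88 (ENSDARG00000027234), bbs5 (ENSDARG00000039827), arl13b (ENSDARG00000012763), cfap300 (ENSDARG00000000349), tekt3 (ENSDARG00000045038) and tubb4b (ENSDARG00000002344). The study profiled hair cells of the lateral line, the water-flow sense organ of fish, cell by cell, comparing larvae mutant for the transcription factor Emx2 with wild-type larvae. Both groups carried the Tg[myo6b:actb1-EGFP] reporter, in which a hair cell promoter drives a fluorescent actin fusion, and both were 6 days post fertilization. The labels state neither the mutant allele nor its number of copies. Trunks were dissociated with enzymes and fluorescent cells were sorted, so each sample was 1 cell in a well of plate 2 or plate 4. No animal or pool was named, so each genotype was 1 sample, and no difference between genotypes could be tested.

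Each lateral line hair cell carries a single true cilium, the kinocilium, beside its stereocilia, and Emx2 is known to set the orientation of the hair bundle in part of these cells. Cilia are built by intraflagellar transport, in which IFT particles carry tubulin and other cargo along the axoneme, while the BBSome and small GTPases sort membrane proteins. Foxj1 is a transcription factor known for switching on genes of motile cilia, including those for dynein arms and for proteins inside the doublet microtubules.

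The cells kept had at least 1000 UMIs, which left 92 mutant cells (545364 UMIs) and 90 of wild type (537512 UMIs). On plate 2 a mutant cell held a median of 7560.5 UMIs and a wild-type cell 6261.5, and on plate 4 a mutant cell held 3682.5 and a wild-type cell 3495. Mutant cells filled well columns 1 to 6 of each plate and wild-type cells columns 7 to 12, so genotype and side of the plate cannot be told apart. All 184 cell barcodes were distinct. Every hair cell marker row, 17 of 17, had at least 10 UMIs, as did 6288 genes in all. These markers summed to 230 to 4321 UMIs per mutant cell and 288 to 7235 per wild-type cell. Most of the UMIs were of pvalb8, a hair cell parvalbumin, so the sums say little about the other markers. It gave 125627 of 154518 in mutant cells and 112495 of 141218 in wild-type cells. Markers of the pronephros and its multiciliated cells, a cilium-rich tissue of the trunk, summed to 38 UMIs in mutant cells and 44 in wild-type cells. The range was 0 to 6 per mutant cell and 0 to 8 per wild-type cell, and 4 of the 9 listed markers (cdh17, odf3b, pax8 and hnf1ba) had no row. Of the 9 listed markers of spinal cord ependyma and floor plate, only urp2 had a row, with 11 UMIs in mutant cells and 2 in wild-type cells. These counts thus say little about such cells. The transcript of emx2 itself gave 105 UMIs in 39 mutant cells and 45 UMIs in 36 wild-type cells, a ratio of 2.30 (1.61 to 3.34). Counts of 3′ tags do not show whether the emx2 transcript encodes a working protein, so this level checks no genotype label.

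Summed over the 7 genes, the level was nearly the same in both genotypes. Most of the summed UMIs came from tubb4b (804 over both genotypes) and tekt3 (648), so the sum says little about the sparser members. The 7 genes gave 964 UMIs in mutant cells, or 1768 CPM (the share of all gene UMIs of the genotype, scaled to a total of 1000000), and 930 UMIs or 1730 CPM in wild-type cells, a ratio of 1.02 (0.933 to 1.12). The bracketed range here and below is a 95% interval for counting error only, and takes no account of variation between cells or larvae. The ratio stood on opposite sides of 1 on the 2 plates, at 0.905 (0.803 to 1.02) on plate 2 and 1.24 (1.07 to 1.43) on plate 4. Per cell the sum ran from 1 to 25 UMIs with a median of 10 in mutant cells. In wild-type cells it ran from 0 to 46 with a median of 8, so the mutant range lay within the wild-type one. These counts are not adjusted for depth. In CPM of the cell, the highest sum was 9846 in mutant cells and 4605 in wild-type cells. Of the 7 genes, 4 were past a ratio of 1.5 in either direction (bbs5, ift88, arl13b and cfap300), against 46% of all 6288 genes with at least 10 UMIs. These were the 4 members with the fewest UMIs, 96 or fewer each. Among genes of 20 to 30 UMIs, where ift88, arl13b and cfap300 lie, 56.4% were past that ratio, and among genes of 200 or more UMIs, where foxj1, tekt3 and tubb4b lie, 8.09% were. Thus ift88, arl13b and cfap300 were all past it, none of foxj1, tekt3 and tubb4b was, and bbs5 lies in neither range. With so few members in a range, these counts give no result about the members.

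**Figure D1:**
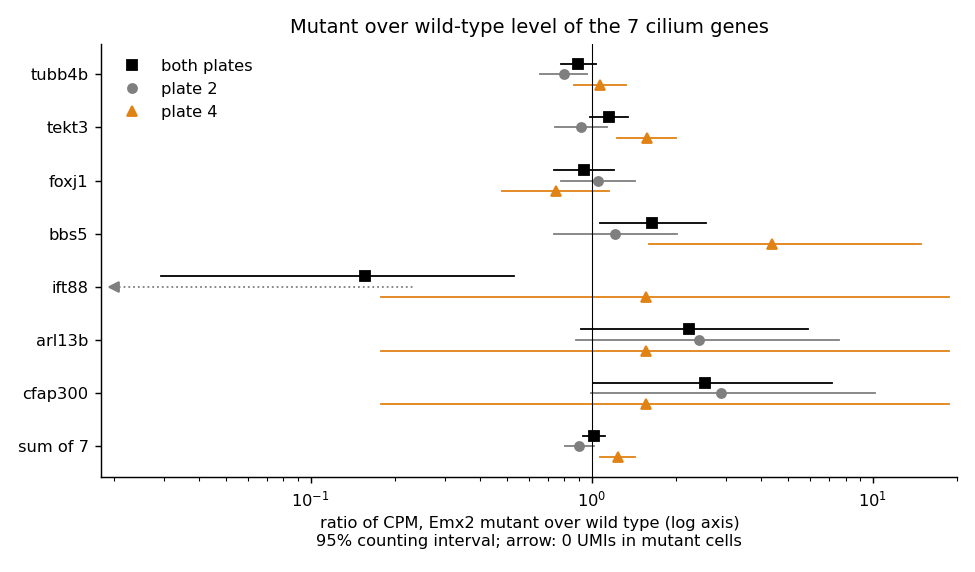
Ratio of the level in Emx2-mutant cells over that in wild-type cells (CPM of summed UMIs, log axis) for the 7 genes and their sum, for both plates together, plate 2 and plate 4, with 95% intervals for counting error. tubb4b, tekt3, foxj1 and the sum stand on opposite sides of 1 on the 2 plates, and the arrow marks ift88 on plate 2, with 0 UMIs in mutant cells.

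foxj1, the ciliary transcription factor, had a summed ratio near 1, with ratios on opposite sides of 1 among cells of high and of low pvalb8 share. On plate 2 it ranged from 0 to 11 UMIs per cell with a median of 1 in mutant cells, and from 0 to 6 with a median of 1 in wild-type cells. On plate 4 it ranged from 0 to 6 with a median of 0 in mutant cells, and from 0 to 11 with a median of 0.5 in wild-type cells. The genotypes overlapped on both plates. Summed, it gave 244 CPM in mutant cells and 260 CPM in wild-type cells, a ratio of 0.936 (0.733 to 1.2). Plate 2 alone gave 1.05 (0.776 to 1.42) and plate 4 alone 0.745 (0.478 to 1.15). Among cells with at least 20% of their UMIs from pvalb8, a hair cell parvalbumin, the ratio was 0.715 (0.542 to 0.942), and among cells under 20% it was 1.97 (1.14 to 3.42), from 28 UMIs in mutant cells and 30 in wild-type cells. Its paralogue foxj1b, a separate row, had 24 UMIs in mutant cells and 25 in wild-type cells, and reads of such close copies may be split uncertainly.

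ift88, a core subunit of the IFT-B particle, was the sparsest member, with 22 UMIs in all. On plate 2 none of the 46 mutant cells had a UMI. The floor of 3 cells set for a count of 0 is a share of 6.52%, and the exact binomial interval reached up to 7.71%. Neither sets a limit on cells that express the gene. On the same plate 11 of 46 wild-type cells had from 1 to 5 UMIs, 17 in total. The interval of the mutant over wild-type ratio on that plate reached up to 0.233. On plate 4 the counts were 3 UMIs in mutant cells and 2 in wild-type cells, a ratio of 1.56 (0.179 to 18.7), so the difference on plate 2 was not seen there, and the plate 4 counts are too few to show one. Over both plates the ratio was 0.156 (0.0295 to 0.529).

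The membrane-sorting genes bbs5 and arl13b had higher counts in mutant cells. bbs5, a BBSome subunit, had 60 UMIs in mutant cells and 36 in wild-type cells, a ratio of 1.64 (1.07 to 2.56). On plate 2 it ranged from 0 to 9 UMIs per cell in mutant cells and from 0 to 6 in wild-type cells, with 19 of 46 cells positive in each genotype. On plate 4 it had 21 UMIs in 10 mutant cells and 5 UMIs in 4 wild-type cells, so most of the pooled difference came from plate 4, where the ratio was 4.37 (1.60 to 14.8) against 1.21 (0.735 to 2.0) on plate 2. arl13b, a small GTPase of the ciliary membrane, had 18 UMIs in 13 mutant cells and 8 UMIs in 5 wild-type cells, a ratio of 2.22 (0.917 to 5.89), with medians of 0 in both genotypes. A single cell, the deepest of all, bore on this value: without it the ratio was 3.33 (1.19 to 11.5).

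cfap300, which in humans is needed to assemble axonemal dynein arms, had 18 UMIs in 11 mutant cells and 7 UMIs in 7 wild-type cells, a ratio of 2.53 (1.01 to 7.18). A single mutant cell on plate 2 held 7 of its UMIs, and the same cell held the highest count of bbs5, 9 UMIs. Without the highest cell of each genotype the cfap300 ratio was 1.83 (0.619 to 6.01), and without the deepest cell it was 2.38 (0.947 to 6.73). The wild-type cells with the gene had 1 UMI each.

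The microtubule genes were the most abundant members, and the only ones seen in most cells once every cell was thinned to 2000 UMIs. tubb4b, a beta-tubulin found in ciliary axonemes of mammals, ranked 133 of 12354 genes by UMIs. On plate 2 it ranged from 0 to 12 UMIs per cell with a median of 4 in mutant cells, and from 0 to 26 with a median of 4 in wild-type cells. On plate 4 it ranged from 0 to 14 with a median of 3 in mutant cells, and from 0 to 18 with a median of 3 in wild-type cells. In these counts the mutant range lay within the wild-type range on both plates. The ratio was 0.794 (0.656 to 0.960) on plate 2, 1.07 (0.863 to 1.32) on plate 4 and 0.897 (0.779 to 1.03) over both. tekt3, a tektin, the family of filament proteins inside doublet microtubules, ranked 170. It had 174 UMIs or 464 CPM in mutant cells and 183 UMIs or 507 CPM in wild-type cells on plate 2. Plate 4 gave 175 UMIs or 1029 CPM in mutant cells and 116 UMIs or 656 CPM in wild-type cells. Its ratio was 0.914 (0.738 to 1.13) on plate 2 and 1.57 (1.23 to 2.0) on plate 4, so its direction differed between the plates.

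**Figure D2:**
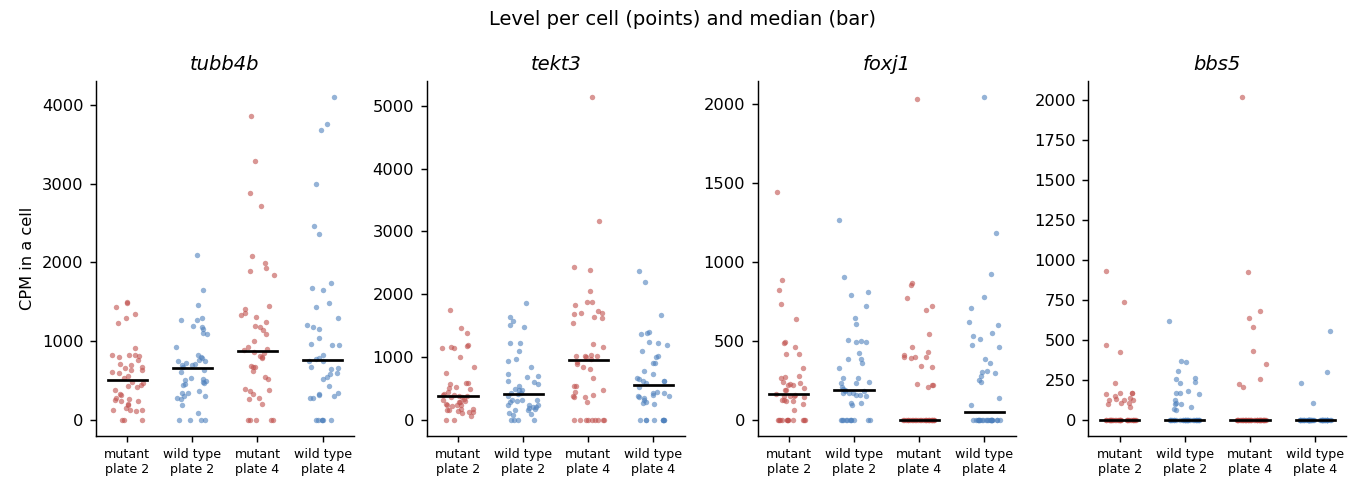
Level per cell, in CPM of that cell's UMIs, of the 4 most abundant members, with each point 1 cell and the bar the median, for mutant and wild-type cells of each plate. The genotypes overlap in every panel; bbs5 has a median of 0 in all 4 sets of cells, and tekt3 has its highest median, 946 CPM, in mutant cells of plate 4.

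With genotypes pooled, both microtubule genes were higher on plate 4. The level on plate 4 over that on plate 2 was 1.66 (1.44 to 1.91) for tubb4b and 1.73 (1.48 to 2.03) for tekt3, and for tekt3 it was 2.22 (1.79 to 2.75) in mutant cells and 1.29 (1.02 to 1.64) in wild-type cells. A ratio of at least 1.5 was found for 26.3% of all genes and for 8.58% of genes with 200 or more UMIs. foxj1 did not share this, at 1.06 (0.816 to 1.37). Plate, depth per cell and any difference in the larvae used for a plate cannot be told apart. The order of the 4 sets by tekt3 level was mutant plate 4 (1029 CPM), wild-type plate 4 (656), wild-type plate 2 (507) and mutant plate 2 (464), where neighbouring intervals overlapped except between the mutant and wild-type sets of plate 4.

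Detection was compared after thinning each cell to 2000 UMIs, which kept 89 mutant and 88 wild-type cells. The share of cells with a UMI was 70.4% in mutant cells and 72.5% in wild-type cells for tubb4b, 64% in mutant cells and 63.5% in wild-type cells for tekt3, and 34.1% in mutant cells and 37.2% in wild-type cells for foxj1. For bbs5 it was 14.9% in mutant cells and 10.3% in wild-type cells. The remaining 3 genes were found in 1.60% to 5.19% of mutant cells and 2.04% to 4.88% of wild-type cells. Unthinned, tubb4b was found in 91.3% of mutant and 88.9% of wild-type cells, tekt3 in 88% of mutant and 85.6% of wild-type cells, and foxj1 in 58.7% of mutant and 63.3% of wild-type cells. At equal depth a mutant cell held 1.93 of the 7 genes on average and a wild-type cell 1.94, and the binomial intervals of the genotypes overlapped for every gene. No cells of another type were sorted as a group, so no background share from cells that lack these genes is given.

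The 4 most abundant members varied more from cell to cell than counting error at the cell's depth gives. The variance over the Poisson expectation, pooled over the plate and genotype sets, was 2.58 for tubb4b, 2.77 for tekt3, 2.20 for foxj1 and 2.19 for bbs5, where 1 is counting error alone. Genes within 1.5 times the same UMI total had medians of 2.67, 2.55, 2.31 and 2.08 in that order, so the members were about as variable as other genes of their abundance. ift88 had 1.21, against a median of 1.76, and arl13b and cfap300 had 1.58 and 1.55, against medians of 1.77 and 1.76. No single cell carried the abundant genes: each gene's own top cell held 3.23% of tubb4b UMIs, 2.47% of tekt3 and 4.03% of foxj1, while for the others it held 9.38% of bbs5, 19.2% of arl13b, 22.7% of ift88 and 28% of cfap300.

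No joint variation of the members across cells was detectable at this depth. Within each plate and genotype, on thinned counts, the mean Spearman's rho over the 21 pairs was 0.018 (mutant) and 0.012 (wild type) on plate 2, and 0.014 (mutant) and -0.021 (wild type) on plate 4, over 43 to 46 cells a set that share a plate. The mean over the sets was 0.0056, which includes pairs with members below the detection bar given next. Over 130305 pairs of the 511 genes detected in at least 25% of cells in every set, the median was 0.00091. For the pairs of members past that bar the median was 0.048. Of the 3 pairs among the members that pass this detection bar, tubb4b with foxj1 had a mean rho of 0.064, tekt3 with foxj1 0.048 and tubb4b with tekt3 -0.0095, while 3.03% of all pairs reached 0.1. Co-detection matched independent detection closely. tubb4b and tekt3 were found together in 80.3 thinned cells against 80.9 under independence, and tekt3 and foxj1 in 41.3 against 40.4. The pair with the highest mean rho, ift88 with arl13b at 0.12, rests on 0.5 shared cells per draw and is no finding at this depth.

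**Figure D3:**
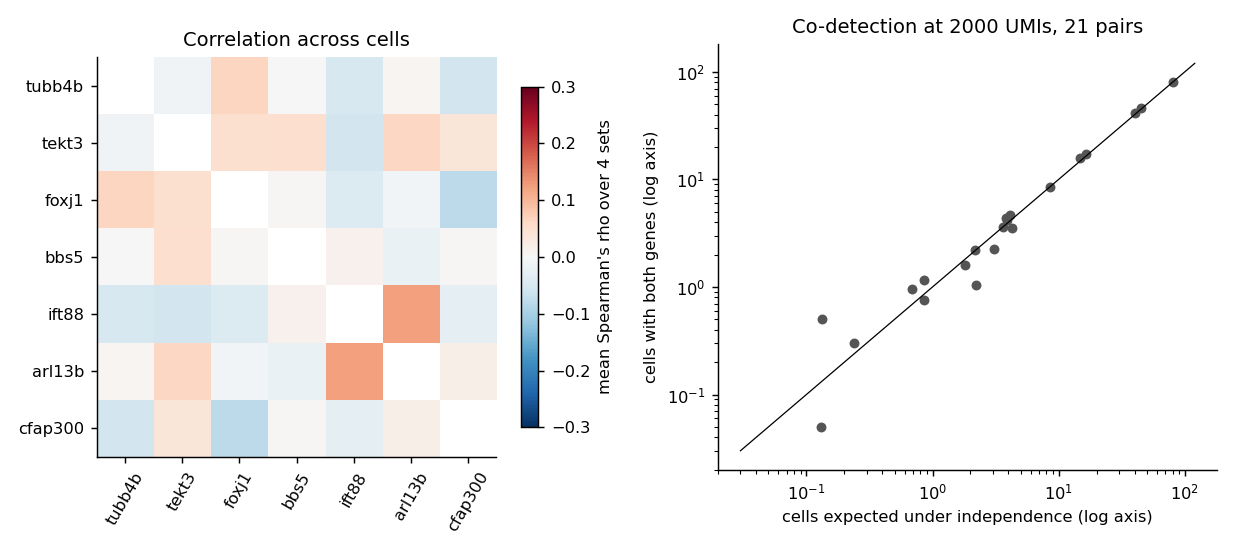
Left, mean Spearman's rho across cells, over the 4 plate and genotype sets, for each pair of the 7 genes at 2000 UMIs per cell. Right, the number of cells in which both genes of a pair were found, against the number under independent detection (log axes, both genotypes together), with points near the line of equality for the well-detected pairs.

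Among the 511 well-detected genes, few resembled the members, and all likenesses were weak. The genes most like tekt3 were pvalb8, a calcium-buffering parvalbumin abundant in hair cells, at a mean rho of 0.19, wu:fj16a03 at 0.17 and EML2 at 0.12. The genes most like tubb4b were RPL8 (0.19), FOS (0.16) and si:dkey-205h13.2 (0.14), and those most like foxj1 were NDUFA1 (0.12), NSA2 (0.10) and ETFB (0.097). For the sum of the 7 genes they were epcam (0.12), TSPAN13 (0.12), RPL29, barhl1a and GAPDHS (0.11 each), and the lowest was atp2a1, a muscle calcium pump, at -0.15. Only 1.96% of genes reached 0.1 to the sum.

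tekt3 had the highest mean correlation of the members with the share of a cell's UMIs taken by pvalb8. With pvalb8 removed before thinning, its rho with that share on plate 2 was 0.17 among mutant and 0.48 among wild-type cells. On plate 4 it was 0.15 among mutant and 0.32 among wild-type cells, and so above 0 in all 4 sets. The mean of 0.28 ranked 10 of 599 genes, where 22% of genes reached 0.1 and the 95th percentile was 0.21. The genes above it included MT-CO2 (0.42) and COX7C (0.34), of the respiratory chain. tubb4b had a mean rho of -0.024 and foxj1 of 0.049, neither with 1 sign across the sets. cfap300 had a mean rho of 0.12, above 0 in 2 of 4 sets, from 25 UMIs in all, and bbs5 of 0.037, also above 0 in 2 sets. The mean for the sum of the 7 genes, most of whose UMIs were of tubb4b and tekt3, was 0.18.

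The same relation appears in counts. Cells of each plate and genotype were split into tertiles by pvalb8 share, and CPM taken over UMIs other than pvalb8. In mutant cells tekt3 had 1011 CPM in the high tertile and 651 CPM in the low tertile, a ratio of 1.55 (1.19 to 2.03), with 2.0 (1.36 to 2.95) on plate 2 but 1.06 (0.728 to 1.55) on plate 4. In wild-type cells it had 1089 CPM in the high tertile and 347 CPM in the low tertile, a ratio of 3.14 (2.33 to 4.26), with 3.23 on plate 2 and 2.93 on plate 4. Whether the genotypes differ in this relation was not tested. The low tertiles were not alike, with a median pvalb8 share of 20.3% in mutant cells and 15.3% in wild-type cells, and 14 mutant against 26 wild-type cells had under 20% pvalb8. Without those cells the mean rho of tekt3 was 0.16, above 0 in all 4 sets. The rho of tubb4b was then above 0 in all 4 sets too, from 0.054 to 0.25. No share over all genes is given for this setting, so the sign is not particular to tekt3 here. bbs5 had a high over low ratio of 1.92 (1.04 to 3.61) in mutant cells, where plate 2 gave 2.82 (1.26 to 6.74) and plate 4 gave 0.974 (0.343 to 2.77). In wild-type cells its ratio was 1.90 (0.831 to 4.45), from 15 UMIs in the high tertile and 12 in the low one, with a single UMI in each on plate 4.

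**Figure D4:**
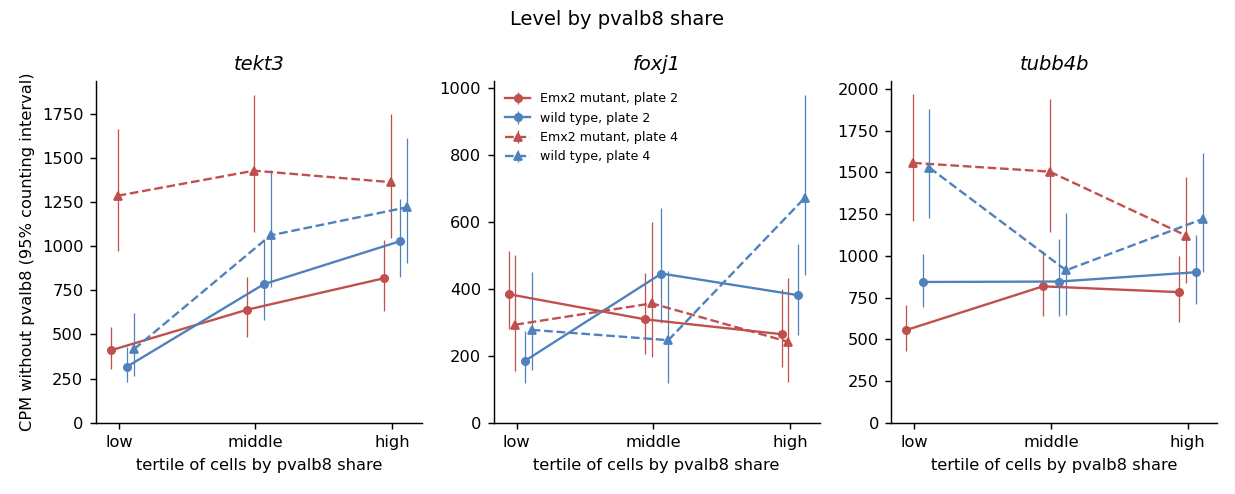
Level of tekt3, foxj1 and tubb4b (CPM over UMIs other than pvalb8, 95% interval for counting error) in the low, middle and high tertile of cells by pvalb8 share, for mutant and wild-type cells of each plate. In tekt3 the mutant line of plate 4 is nearly flat, at a ratio of 1.06, while both wild-type lines are higher in the high tertile than in the low one; in foxj1 the mutant high tertiles lie below their low tertiles and the wild-type ones above.

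Other measures moved with the pvalb8 share. Over both genotypes, ribosomal protein genes had a high-tertile over low-tertile ratio of 0.735, mitochondrial genome transcripts of 1.35, and support cell markers of 0.671 (0.589 to 0.763), of which plate 2 gave 0.895 (0.758 to 1.06) and plate 4 gave 0.416 (0.335 to 0.514). Muscle markers had 1.23 (1.08 to 1.40), and epidermis markers 0.810 (0.697 to 0.941) on plate 2 but 1.57 (1.26 to 1.96) on plate 4. The support cell, muscle and epidermis sums were each mostly 1 gene, so these ratios say little about the other markers. In mutant cells epcam gave 445 of 732 support cell UMIs, atp2a1 402 of 514 muscle UMIs and krt5 657 of 765 epidermis UMIs. In wild-type cells they gave 451 of 669, 699 of 836 and 630 of 801 in that order. Markers of the pronephros and its multiciliated cells had 0.633 (0.359 to 1.08). Support cell markers summed to 732 UMIs in mutant cells and 669 in wild-type cells over 7 of 9 listed markers. The range was 0 to 79 per mutant cell and 0 to 69 per wild-type cell, and sox2 and sost had no row. Single markers did not all follow this sum. In mutant and wild-type cells FNDC7 had 52 and 15 UMIs, SLC1A3 72 and 36, LFNG 32 and 5, and FGFR1 9 and 7. The other way went cldnb, with 113 and 137, and her4.1, with 9 and 18. The rho of pvalb8 share with depth on plate 2 was -0.41 among mutant and -0.24 among wild-type cells. The values for plate 4 were 0.16 among mutant and -0.016 among wild-type cells. Their part in the tekt3 relation was not tested. Genotype ratios also depended on these cells: among cells with at least 20% pvalb8, the mutant over wild-type ratio was 0.939 (0.790 to 1.12) for tekt3, against 1.72 (1.15 to 2.56) among cells under 20%, where it had 48 UMIs in mutant cells and 59 in wild-type cells. The foxj1 ratios given above, 0.715 and 1.97, come from the same split.

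Cells with an emx2 UMI were also set against cells without one. Finding such a UMI depends on depth, and the groups differed in it. On plate 2 the median was 7560.5 UMIs with and 7734.5 without in mutant cells, and 7997 with and 6007 without in wild-type cells. On plate 4 it was 4320 with and 3467 without in mutant cells, and 3660 with and 3323 without in wild-type cells. In mutant cells tekt3 had 814 CPM with emx2 and 510 CPM without, a ratio of 1.60 (1.29 to 1.98), which came from plate 2 (2.52) and was 0.975 on plate 4. In wild-type cells it had 453 CPM with emx2 and 647 CPM without, a ratio of 0.701 (0.550 to 0.890), with 0.708 on plate 2 and 0.675 on plate 4. foxj1 had a ratio of 1.13 (0.792 to 1.61) in mutant cells and 0.782 (0.548 to 1.11) in wild-type cells, with 1.26 in mutant cells on plate 2 and 0.882 on plate 4. tubb4b had 0.805 (0.650 to 0.994) in mutant cells, which came from plate 4 (0.581) and was 1.02 on plate 2, and 1.27 (1.04 to 1.55) in wild-type cells, with 1.31 on plate 2 and 1.18 on plate 4. bbs5 had 55.7 CPM with emx2 and 151 CPM without in mutant cells, and 75.6 CPM with and 59.4 CPM without in wild-type cells. For bbs5 the mutant cells of plate 2 gave a ratio of 0.482 (0.209 to 1.02), from 10 UMIs with emx2 and 29 without. Those of plate 4 gave 0.202 (0.0381 to 0.692), from 3 UMIs with emx2 and 18 without. The wild-type cells of plate 2 gave 1.45 (0.674 to 3.18). Those of plate 4, with 5 UMIs in all, gave 0.685 (0.0572 to 5.98). No share over all genes is given for this split. With 0 as the median emx2 count, a cell without a UMI may still express the gene, and this split was made after the data were seen.

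The 7 genes were then set beside a wider list of cilium genes, of which 192 had a row and 153 had at least 10 UMIs. Of these 153, 24 were at least 1.5-fold higher in mutant cells (15.7%, against 21.3% of all genes) and 33 at least 1.5-fold lower (21.6%, against 24.8%). The median log2 ratio, with a prior of 1 UMI in each genotype, was -0.08, and -0.05 over all genes. By these counts and this median the list was close to the background of the table, which was not matched for UMI total. Summed, the list had a ratio of 0.858 (0.832 to 0.885), with 0.661 (0.624 to 0.700) for its tubulins and 0.963 (0.927 to 0.9997) without them. Of its genes with at least 20 UMIs, 13 were past 1.5-fold higher and above 1 on both plates (10.9%, against 12% of all such genes) and 15 past 1.5-fold lower and below 1 on both (12.6%, against 13.9%).

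Among transport and membrane genes, the higher ones were CLUAP1, an IFT-B subunit (1.68), tulp3, an adaptor that brings receptors into cilia (2.13), BBIP1 of the BBSome (2.09), ARL3, a GTPase that releases lipidated cargo (1.56), and the lipid-cargo carrier PDE6D (2.85, with 26 UMIs in mutant cells and 9 in wild-type cells). bbs5 and arl13b belong to the same count. The lower ones were IFT56 of IFT-B (0.554), the carrier UNC119B (0.379) and B9D1 of the transition zone (0.542). Among axoneme genes the higher ones were cfap300, the dynein regulatory complex gene ccdc65 (2.08), and 3 genes listed with the radial spokes and central pair, CFAP43 (2.96), AK7 (2.24) and ak8 (1.52). The lower ones were the outer dynein arm genes DNAI1 (0.516) and odad1 (0.522), the microtubule inner protein genes ribc2 (0.628) and SPMIP7 (0.404), and 4 dynein assembly genes. These 4 were DNAAF10 (0.538), ZMYND10 (0.634), spag1b (0.269, with 9 UMIs in mutant cells and 33 in wild-type cells) and pih1d2 (0.482). cfap300, also a dynein assembly gene, thus lay on the other side from them. By role, genes of at least 20 UMIs were counted if past 1.5-fold over both plates together and on the same side of 1 on each. A single plate could thus fall short of 1.5-fold, as bbs5 did on plate 2 (1.21). The counts were 1 higher and 1 lower of 13 in IFT-B, 1 higher of 3 in IFT-A and the motors, 2 higher of 5 in the BBSome, and 3 higher and 1 lower of 5 among membrane GTPases and carriers. They were 1 lower of 6 in the transition zone, 1 higher and 2 lower of 19 among dyneins and their docking, 1 higher and 4 lower of 12 in dynein assembly, 2 lower of 21 among tektins and other inner proteins, 3 higher of 22 in radial spokes and central pair, and 1 higher and 4 lower of 10 among tubulins. Over all genes of at least 20 UMIs, 12% were higher and 13.9% lower by this criterion, and no role was tested against them.

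**Figure D5:**
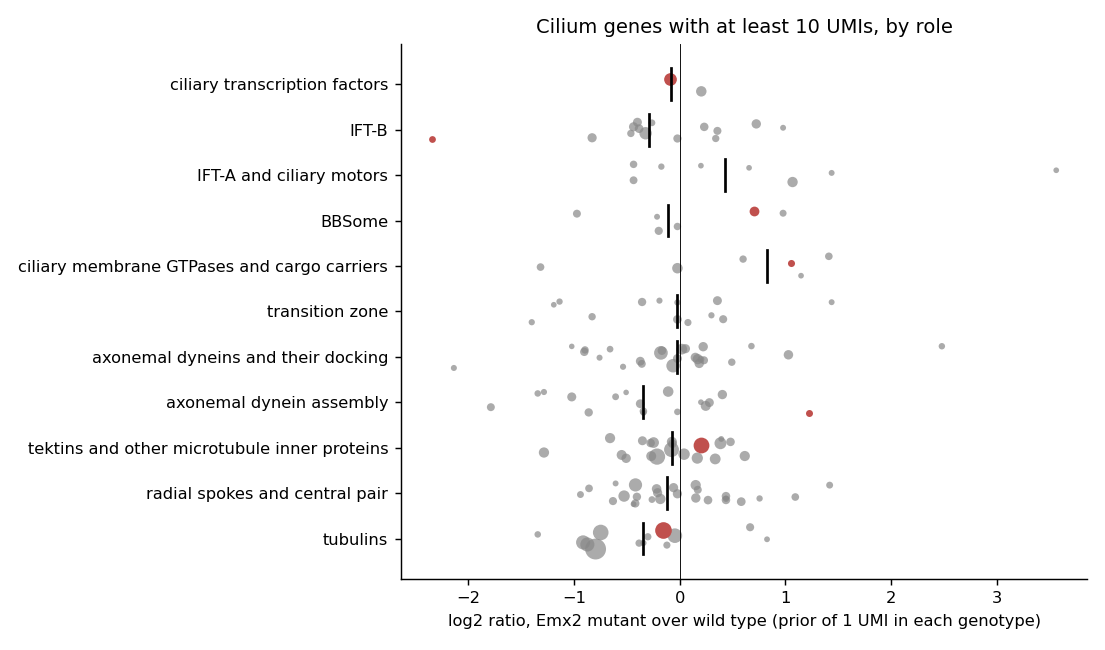
Log2 ratio of mutant over wild-type level (prior of 1 UMI in each genotype) for the 153 cilium genes with at least 10 UMIs, by role. Point area grows with the square root of UMIs, red points are the 7 genes, and black bars are medians. Most well-counted genes lie near 0, and the large tubulin points to the left are zgc:55461 and 3 alpha-tubulin genes.

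The most abundant genes far from 1 were in the tubulin group. The row zgc:55461 was listed with the tubulins but annotated no further in the sources used here. It had 731 UMIs in mutant cells and 1251 in wild-type cells, a ratio of 0.576. Whether reads are split between this row and tubb4b was not tested. The alpha-tubulins are the partners of beta-tubulin in the microtubule lattice. Of these, TUBA1A (0.595), tuba1b (0.544) and tuba1c (0.529) were lower in mutant cells on both plates too, while tuba5 was higher (1.62). Not every abundant alpha-tubulin was lower: tuba8l4, with 236 UMIs in mutant cells and 240 in wild-type cells, stayed near 1 (0.969). It fell below 1 in plate 2 cells (0.854) and above 1 in plate 4 cells (1.26). Alpha-tubulin genes are near-identical copies, so reads may be split among them uncertainly. In cells with at least 20% pvalb8 the ratios were 0.946 (0.833 to 1.07) for zgc:55461, 0.799 (0.642 to 0.995) for TUBA1A, 0.893 (0.682 to 1.17) for tuba1b and 0.788 (0.605 to 1.03) for tuba1c. In cells under 20% they were 0.456 (0.385 to 0.538) for zgc:55461, 0.553 (0.406 to 0.741) for TUBA1A, 0.309 (0.193 to 0.477) for tuba1b and 0.327 (0.204 to 0.505) for tuba1c. tubb4b had 0.966 (0.813 to 1.15) in cells with at least 20% pvalb8 and 0.878 (0.663 to 1.15) in cells under 20%.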

How the data were processed

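Single hair cells were sequenced with mcSCRB-seq, per the labels' protocols, and the authors deposited raw UMI counts, whole numbers for every gene in every cell. STAR 2.6.0a and the build GRCz11 are named in the submitters' processing notes; the tool that counted UMIs is not given in the sources used here. Of 12409 table rows, 54 spike-in rows (5.15% of UMIs) stayed out of library sizes, while 1 reporter row stayed in. Genotype came from the labels and plate from the well code in the titles. A symbol table named 11707 of 12354 genes; symbols were matched regardless of case, else without a final a or b. Genomic sequence was not used here.

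Cells under 1000 UMIs (2 wild-type cells) were left out; wells held sorted single cells and doublets were not called. UMIs were summed per genotype and plate. Intervals are at 95%: exact Poisson for levels, exact conditional (Clopper-Pearson) for ratios, exact binomial for shares, with a floor of 3 UMIs or cells for a count of 0. They cover counting error only. With 1 sample per genotype there is no test and no p-value. Detection was the exact expectation of thinning to 2000 UMIs; correlations were means over 20 thinning draws, within each plate and genotype, for sets of at least 10 cells. Genes named from the wider list were those with at least 20 UMIs, past a ratio of 1.5 and on the same side of 1 on both plates, with the most abundant of a role also open to naming; likeness used genes found in at least 25% of thinned cells of every set. Calculations ran in scipy 1.17.1 with numpy 2.4.6 under Python 3.11.15, and were tested on simulated data. For ratios, the simulated counts held counting error alone, without the further variation between cells seen in the 4 most abundant members. Alternatives included size factors from DESeq2 1.42.0 and TMM factors from edgeR 4.0.16 (R 4.3.3).

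The members and lists were chosen with earlier results of these data known. The exact detection (in place of 1 draw that was low for tubb4b), the minimum of 10 cells per set, the tertiles of pvalb8 share, the emx2 split, the variance ratios, the expectation in place of 1 draw for thinned sums, the plate 4 over plate 2 ratios, the background by UMI range, the tubulin ratios by pvalb8 share and the member ratios in cells under 20% pvalb8 were chosen after the data were seen.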

Additional observations from a re-analysis of the deposited data

Results flagged for a closer look

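The high over low tertile ratio of foxj1, by pvalb8 share, was below 1 in mutant and above 1 in wild-type cells on both plates. Over both plates together it was 0.714 (0.451 to 1.11) in mutant cells and 2.23 (1.47 to 3.40) in wild-type cells. In mutant cells plate 2 gave 0.689, from 22 UMIs in the high tertile and 45 in the low one. Plate 4 gave 0.824 there, from 11 and 13 UMIs. The mutant interval spanned 1 on each plate, reaching up to 1.17 on plate 2 and 1.99 on plate 4. The mutant direction was thus not resolved on either plate. Wild-type cells gave 2.06 on plate 2 and 2.42 on plate 4, where the lower limits were 1.19 and 1.26. The mutant ratio over the wild-type ratio was 0.321. The difference was not tested, since each genotype is 1 sample. The criterion, opposite sides of 1 on both plates, was set after this pattern had been seen. No share over all genes is given for this criterion, so how often other genes meet it is not known. Without cells under 20% pvalb8, the rho of foxj1 with the pvalb8 share on plate 2 was -0.056 among mutant and -0.12 among wild-type cells. The values for plate 4 were 0.030 among mutant and 0.14 among wild-type cells, so the opposite signs were not kept on either plate.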

How the results depend on the processing

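The summed ratio of 1.02 lay outside its interval on plate 2 alone (0.905) and plate 4 alone (1.24), and inside it under the other alternatives. The count of members past 1.5-fold ran from 3 to 5. Of the genotype ratios whose interval left out 1, 2 crossed 1: ift88 on plate 4 alone (1.56), and cfap300 in the first thinning draw alone (0.659), a setting added after the data were seen, against 1.89 in the expectation over draws. Ratios whose interval spans 1 crossed it too: tekt3 (1.15) on plate 2 alone (0.914) and without cells under 20% pvalb8 (0.939), tubb4b (0.897) on plate 4 alone (1.07) and in the first draw (1.05), and foxj1 (0.936) on plate 2 alone (1.05) and in the first draw (1.16). The mean pair correlation of 0.0056 became 0.0264 without thinning, 0.0261 without members found in under 10% of cells, and 0.0428 at 5000 UMIs, where only the plate 2 sets had at least 10 cells. That minimum was set after the values at 5000 UMIs were seen, and without it the mean was -0.0133. The correlation of the sum with the pvalb8 share, 0.175, became 0.391 at 5000 UMIs, and 0.397 without the minimum. It was 0.0734 with pvalb8 left in the denominator, 0.0612 on plate 4 alone against 0.289 on plate 2 alone, and 0.0783 in mutant cells alone against 0.272 in wild-type cells alone. For tekt3 it ranged from 0.162 to 0.510 over all settings. Of the values for single genes, 239 stayed within their spread and 52 moved; the cause was not tested. Infinite ratios were left out. No paired analysis was possible because each genotype is 1 sample and the labels number no pairs. Depth limits ift88, arl13b and cfap300, with 26 or fewer UMIs each.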
